A study of Homo sapiens with 33 samples.

Results

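The interaction of all-trans retinoic acid (RA) with tumour necrosis factor (TNF) was measured in THP-1 cells, a human line grown from a monocytic leukaemia. The members are the 21 arrays of the 2-by-2 design harvested at 40 h, of 33 arrays in the series, taken by their labels and not by any measured value. RA plus TNF comprised 5 wells that had RA at 20 nM for 40 h, given again with TNF, and TNF at 5 ng/ml for the last 24 h. TNF alone comprised 5 wells with TNF at 5 ng/ml for 24 h, RA alone 5 wells with RA at 20 nM for 40 h and a second addition after 16 h, and vehicle 6 wells with 0.1% ethanol. The other 12 arrays, an RA time course and its vehicle wells, were not used in the fit. Each array held total RNA of its own culture well, hybridised to an Affymetrix HG-U133 Plus 2 array. All wells are 1 cell line, so the p-values measure the spread between wells of this line. The labels do not say whether the TNF wells had ethanol. The titles of the 3 vehicle arrays in array set 2 name them as 0 h controls while their treatment text gives 40 h, and they were grouped by the treatment text, as the design text counts them.

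RA enters the nucleus and binds retinoic acid receptors, which sit on DNA with retinoid X receptors and switch genes on when RA is bound. In myeloid cells RA is known for driving differentiation. TNF binds its receptors on the cell surface and activates NF-kB and MAP kinases, which induce chemokines, cytokines and the inhibitors that switch the pathway off again. With 2 agents, an effect is additive on the log2 scale when the combined change equals the sum of the single changes. The interaction is what RA did in cells with TNF less what it did in cells lacking TNF, so a positive value is a combination above the additive level and a negative value a combination below it. The same number is obtained with the roles of RA and TNF exchanged.

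Levels are given as multiples of the median signal of the same array, which is the scale of the deposited values before their log2. No level of 1 gene can be set against that of another on these arrays. The recovered array medians lay between 23.2 and 45.2 signal units, and RA alone replicate 5 had the lowest. The interaction of the array median was -1.23 ± 3.39 units, and that of the log2 3' to 5' ratio of the ACTB control probe sets -0.17 ± 0.25 (SE, 21 arrays). The 8 monocytic line markers with a probe set summed to 256 to 317 array medians with RA plus TNF, 143 to 211 with TNF, 146 to 283 with RA and 120 to 204 in vehicle. The 6 lymphocyte markers summed to 11.1 to 17.6 with RA plus TNF, 12.4 to 17.3 with TNF, 6.44 to 13 with RA and 6.49 to 12.9 in vehicle, and the 6 erythroid and megakaryocyte markers to 7.74 to 15.1 with RA plus TNF, 5.42 to 11.8 with TNF, 7.25 to 15 with RA and 8.28 to 11.9 in vehicle. The 10 epithelial and fibroblast markers summed to 8.02 to 10.9 with RA plus TNF, 6.86 to 9.58 with TNF, 5.77 to 12.4 with RA and 7.41 to 11.2 in vehicle. These sums add levels of different probe sets, so the brightest weigh most. The monocytic sum of RA plus TNF was above that of all TNF and vehicle arrays and overlapped RA, but its members did not move alike. The median level of CD14 was 56.7 with RA plus TNF against 1.04 in vehicle, and that of CSF1R 41.6 with RA plus TNF against 13.4 in vehicle. LYZ had 69.6 with RA plus TNF against 88 in vehicle, MPO 0.66 with RA plus TNF against 1.35 in vehicle, and CD4 24.9 with RA plus TNF against 22.5 in vehicle. For the other lists the sums overlapped between RA plus TNF and TNF. The part of the marker levels in the results was not tested. Fewer cells of a kind and less RNA per cell cannot be told apart in such bulk RNA.

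Few genes were called as departing from additivity. Of 12398 genes tested, 33 lay above additivity (0.266%) and 20 below it (0.161%), at an adjusted p under 0.05 in limma with Benjamini-Hochberg adjustment. Their sizes ran from 0.96 to 3.72 log2, and 50 of the 53 were at least 2-fold. At an unadjusted p under 0.05 there were 515 genes above (4.15%) and 402 below (3.24%). All arrays of the combination lay above every other array in 14 of the 53 genes (0.984% of all genes tested) and below every other array in 5 (0.347%). In fits that left out 1 array each, 23 of the 53 were called in all 21 fits and 20 in fewer than 11, among them SMPDL3A (3), EPAS1 (6), LACC1 (8), RET (8) and NFKBIA (10). On a linear scale of signal units 52 of the 53 kept their sign, the exception being PLEKHO1. On that scale 50 of the 53 exceeded 2 standard errors in size. NFKBIA was among those that did not (1392 ± 1503 units). Other probe sets above the filter on low values were present for 35 of the 53, and in 28 all had the same sign. By the interactions of their other probe sets, the exceptions were EMP2 (-0.33 to 1.16), DLG1 (-0.15 to 1.15), COL6A1 (-0.87), RNF130 (-0.62), NFKBIA (-2.435), LINC02987 (1.38) and GLDN (0.007). The chart of combined effects against sums of single effects shows where the called genes lie among all genes.

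**Figure D1:**
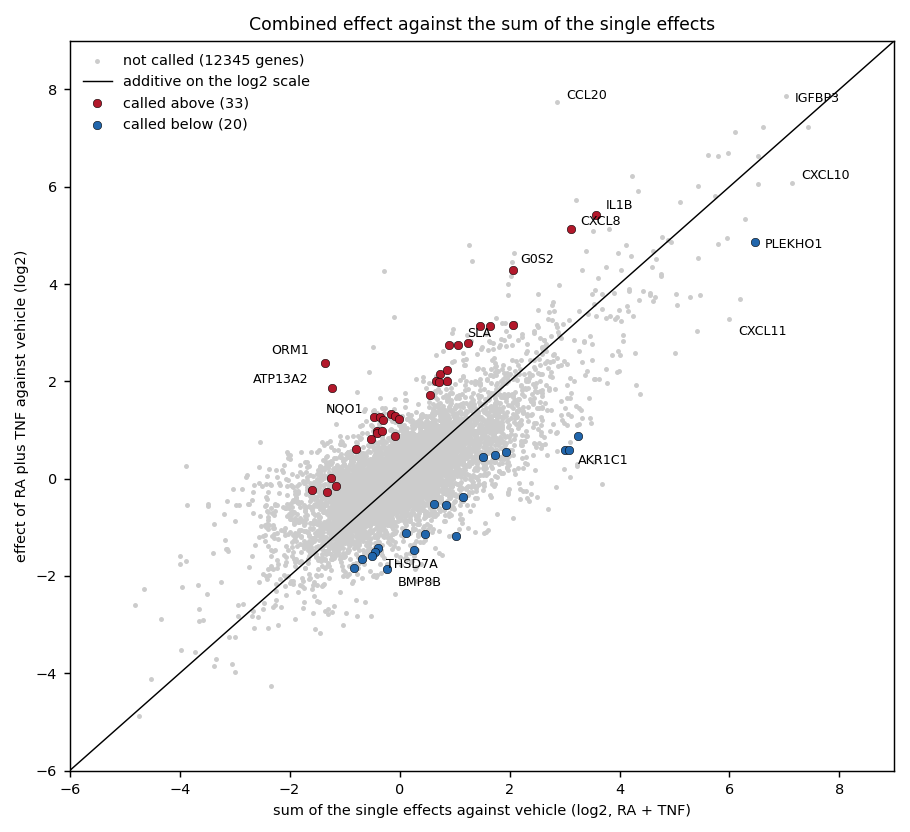
Effect of RA plus TNF against vehicle (y axis, log2) plotted against the sum of the effects of TNF alone and RA alone (x axis, log2) for the 12398 genes tested, 1 point a gene, with the line of additivity. The 33 red genes are called above and the 20 blue genes below additivity, and CCL20, far above the line, is not called.

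The genes above additivity are described by the shape of their response, beginning with those that neither agent alone lowered by 0.5 log2 or more. G0S2, which restrains the lipase that opens lipid droplets, had levels of 94.1, 70, 65.6, 171 and 167 with RA plus TNF, against 10.1, 10, 11.3, 12.2 and 12 with TNF. With RA alone it had 7.3, 6.63, 7.67, 18 and 22.4, and in vehicle 2.99 to 8.04 with a median of 6.19. Every array of the combination was above every array of the other groups. RA raised G0S2 by 3.24 ± 0.23 log2 under TNF and by 1.01 ± 0.22 without it, which gave an interaction of 2.22 ± 0.32 (adjusted p = 0.000166). It was 2.44 in array set 1 and 2.05 in array set 2, the 2 ranges into which the array record numbers fall. RA replicates 4 and 5, from array set 2, lay above all vehicle arrays of G0S2, and the other RA arrays within their range.

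CXCL8, a chemokine that attracts neutrophils, had levels of 184, 156, 176, 153 and 185 with RA plus TNF and 26.1, 18.5, 21.6, 17.1 and 15.1 with TNF. RA alone gave 5.85, 5.95, 5.53, 17.3 and 39.1, and vehicle 2.31 to 9.42 with a median of 4.85. The combination did not overlap any other group. The RA arrays were split: replicates 4 and 5, from array set 2, lay above the vehicle arrays and the other 3 within their range. The interaction was 2.02 ± 0.47 (adjusted p = 0.037), with 2.85 in array set 1 and 0.90 in set 2, and the call was kept in 8 of 21 fits that left out 1 array each (1.77 to 2.51).

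IL1B, the secreted cytokine interleukin 1 beta, followed a like course, with 48.4, 39.7, 40.8, 127 and 109 in the combination against 4.78, 3.78, 7.29, 18 and 13.4 with TNF. RA alone gave 2.01, 1.76, 2.34, 6.95 and 7.32, and vehicle 0.353 to 3.12 with a median of 2.07. The combination stood apart from all other arrays. RA replicates 4 and 5 again lay above all vehicle arrays, and the other RA arrays within their range. The IL1B interaction was 1.85 ± 0.42 (adjusted p = 0.0322), kept in 9 of 21 fits without 1 array (1.56 to 2.19). Of the other 7 tested members of the interleukin 1 family list none was called, and IL1RN, the receptor antagonist, was at 0.91 (adjusted p = 0.389).

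**Figure D2:**
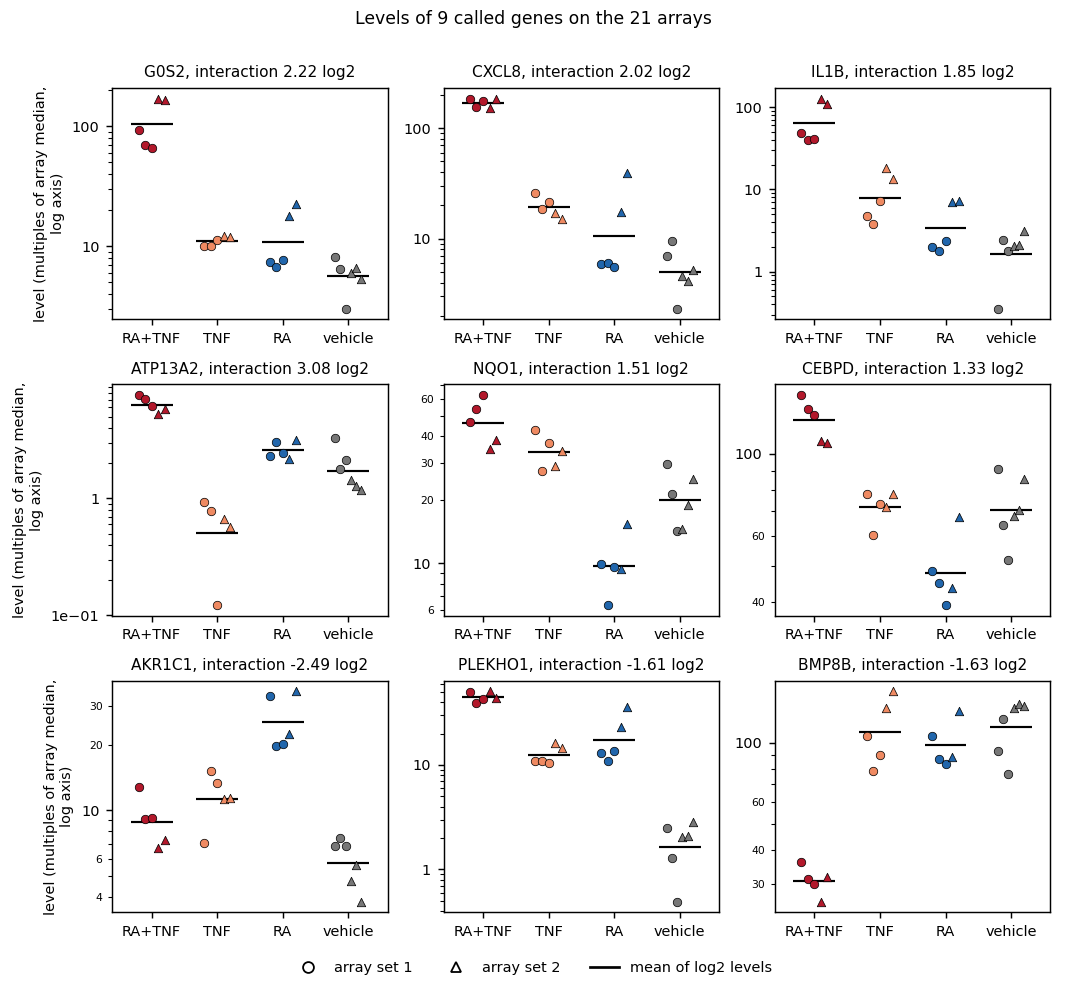
Levels of 9 called genes on the 21 arrays (log axis, multiples of the array median), by group from RA plus TNF to vehicle. Circles are array set 1, triangles array set 2, and lines the mean of the log2 levels. In the upper row the combination is above all other arrays, and for BMP8B it is below all of them.

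G0S2, CXCL8 and IL1B belonged to 13 genes in which neither single effect fell by 0.5 log2 or more and the combination exceeded their sum, a grouping by point values and not a test. EMP2, a tetraspan membrane protein, had 26.5, 22.6, 22.8, 35.4 and 36.5 with RA plus TNF, 3.98 to 6.64 with TNF, 3.27 to 15 with RA and 3.58 to 5.87 in vehicle (interaction 1.86 ± 0.28, adjusted p = 0.000358). CTSB, a lysosomal cysteine protease, had 190, 149, 147, 189 and 190 in the combination, against 28.3 to 45.9 with TNF, 39.4 to 137 with RA and 24.7 to 52.2 in vehicle (1.43 ± 0.26, adjusted p = 0.0038). TNF alone left CTSB at -0.02 log2 (adjusted p = 0.963), and RA raised it by 2.18 under TNF and by 0.75 without. With RA alone CTSB was at 98.2 and 137 in replicates 4 and 5, and at 39.4 to 53.9 in the others. IFNGR2, a chain of the interferon gamma receptor, had 82.4 to 124 with RA plus TNF, 33.4 to 56.5 with TNF, 15.3 to 56.1 with RA and 15.8 to 41.1 in vehicle (1.13 ± 0.25, adjusted p = 0.0244). LACC1, a macrophage enzyme of purine nucleosides, reached 30.2 to 56.4 in the combination, against 7.74 to 11.7 with TNF, 4.23 to 11.4 with RA and 2.34 to 7.47 in vehicle (1.50 ± 0.35, adjusted p = 0.0339). In all 4 of these genes the combination was above every other array. The others were NT5DC2, DRAM1, SMPDL3A, NRIP1, SOX4 and RNF130, with interactions from 0.96 to 1.67. NRIP1, a nuclear receptor cofactor, rose by 2.45 ± 0.18 under TNF and by 1.09 ± 0.17 without TNF.

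In 11 genes the point value of TNF alone was lower by 0.5 log2 or more and the combination lay above the sum. ATP13A2, a lysosomal polyamine transporter, had 7.67, 7.02, 6.16, 5.3 and 5.82 in the combination against 0.939, 0.774, 0.122, 0.672 and 0.574 with TNF. RA alone gave 2.3, 3.02, 2.43, 2.16 and 3.17, and vehicle 1.19 to 3.27 with a median of 1.61. The TNF arrays were below all vehicle arrays and the combination above all of them. TNF lowered ATP13A2 by 1.78 ± 0.39 log2 without RA and raised it by 1.29 ± 0.41 with RA, an interaction of 3.08 ± 0.56 (adjusted p = 0.0038). It was kept in all 21 fits without 1 array (2.54 to 3.28), while the levels with TNF lay under the array median.

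SLA, an adaptor that damps antigen receptor signalling, had 46 to 84.2 with RA plus TNF, 3.36 to 9.66 with TNF, 16.4 to 70.9 with RA and 5.52 to 13 in vehicle (1.69 ± 0.27, adjusted p = 0.000958). SLC7A7, a light chain of a cationic amino acid transporter, had 16.6 to 27 with RA plus TNF, 4.39 to 6.7 with TNF, 8.34 to 16.6 with RA and 6.5 to 16 in vehicle (1.74 ± 0.29, adjusted p = 0.00136). GAPT, an adaptor protein of myeloid and B cells, had 26.3 to 38.6 in the combination and 7.05 to 18.9 with TNF, so the TNF arrays stood apart below. The levels of GAPT with RA (31.8 to 73.7) and in vehicle (21.9 to 46.9) overlapped the combination (1.26 ± 0.25, adjusted p = 0.00776). EPAS1, a hypoxia-inducible transcription factor, was at -0.27 log2 in the combination (adjusted p = 0.314) and at -1.49 with TNF (adjusted p = 3.68e-08), both against vehicle, with an interaction of 1.06 ± 0.25 (adjusted p = 0.037). CD300LF, GLIPR1, DLG1, FUCA1, RFLNB and TPD52 made up the rest, with interactions from 0.99 to 1.64.

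In 9 genes the point value of RA alone was lower by 0.5 log2 or more and the combination lay above the sum. ORM1, an acute-phase protein of plasma, had the largest called interaction, 3.72 ± 0.80 (adjusted p = 0.0209). Its levels were 4.47, 7.16, 5.45, 11.2 and 10.8 in the combination, 2.26, 1.1, 2.58, 1.91 and 0.86 with TNF, 0.335, 0.217, 0.0544, 2.83 and 2.55 with RA and 1.01 to 2.49 in vehicle. The combination was above all other arrays, but the other groups lay near or below the array median, so the size is uncertain. RA alone on ORM1 did not pass (-1.53, adjusted p = 0.135), and its RA replicates 4 and 5 were above all vehicle arrays.

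NQO1, a quinone reductase of the oxidative stress response, had 47, 54.1, 62.9, 34.7 and 38.3 with RA plus TNF, against 42.9, 27.3, 37.2, 28.9 and 34.1 with TNF. RA alone gave 9.88, 6.32, 9.56, 9.36 and 15.3, and vehicle 14.3 to 29.7 with a median of 20. The combination overlapped TNF and was above all vehicle arrays, and the RA arrays other than replicate 5 were below all vehicle arrays. RA lowered NQO1 by 1.05 ± 0.20 log2 without TNF (adjusted p = 0.000624) and left it at 0.46 under TNF (adjusted p = 0.224), an interaction of 1.51 ± 0.29 (adjusted p = 0.00745). With the probe set of highest mean log2 value the interaction was 0.66 (adjusted p = 0.414).

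CEBPD, a transcription factor of myeloid cells, showed opposite RA effects. Its levels were 144, 132, 127, 108 and 107 in the combination, 77.7, 60.3, 73.3, 71.8 and 77.8 with TNF, 48.4, 44.8, 39.1, 43.6 and 67.6 with RA and 51.7 to 91.2 in vehicle. RA raised it by 0.77 ± 0.16 under TNF (adjusted p = 0.00115) and lowered it by 0.56 ± 0.16 without TNF (adjusted p = 0.0298), and the interaction was 1.33 ± 0.22 (adjusted p = 0.00145). RAB7B, a small GTPase of endosomes, had 5.57 to 10.5 with RA plus TNF and 5.42 to 14.3 with TNF, but 2.36 to 3.12 with RA against 7.14 to 10.7 in vehicle. Only the RA arrays stood apart in RAB7B (1.35 ± 0.30, adjusted p = 0.0266). TNFAIP8, a TNF-induced regulator of cell death, COL6A1, SKIL and TMEM176B were the others, with interactions from 1.24 to 1.39. RA alone did not pass for COL6A1 (-0.58, adjusted p = 0.145) or SKIL (-0.57, adjusted p = 0.182).

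NFKBIA, the inhibitor that holds NF-kB in the cytoplasm, was the ninth. It had 348, 295, 310, 195 and 190 with RA plus TNF, 237, 229, 248, 197 and 239 with TNF, 18.7, 13.5, 15.2, 11.1 and 20.4 with RA and 20.9 to 46.7 in vehicle. The combination and TNF overlapped, and all RA arrays were below all vehicle arrays. Within array set 1 the combination was above all TNF arrays, and within array set 2 below them. RA lowered NFKBIA by 0.92 ± 0.17 alone (adjusted p = 0.0003) and left it at 0.18 under TNF (adjusted p = 0.68). The interaction was 1.10 ± 0.24 (adjusted p = 0.0278), with 1.57 in array set 1 and 0.44 in set 2. A second probe set for NFKBIA had the other sign, and the mean of both gave -0.67 (adjusted p = 0.748).

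The promoters of CXCL8 and NFKBIA, shown because both genes rose with TNF alone and differed in their response to RA, are given as the 250 bases before the RefSeq start (GRCh38.p14), 5' to 3' on the strand of the gene. The CXCL8 window lies at chr4:73740319-73740568 on the plus strand and the NFKBIA window at chr14:35404750-35404999 on the minus strand. Capitals mark matches on either strand to TGANTCA (AP-1), GGNNNTTCC (kappaB-like), AGGTCA (retinoid half-site) or TGACNNNGC (antioxidant response core). Matches to different motifs did not overlap here.
CXCL8: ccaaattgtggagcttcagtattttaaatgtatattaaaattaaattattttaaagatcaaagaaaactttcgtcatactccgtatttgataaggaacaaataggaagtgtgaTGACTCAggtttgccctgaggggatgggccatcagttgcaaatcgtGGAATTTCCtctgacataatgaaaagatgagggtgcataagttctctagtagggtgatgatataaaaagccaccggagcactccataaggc
NFKBIA: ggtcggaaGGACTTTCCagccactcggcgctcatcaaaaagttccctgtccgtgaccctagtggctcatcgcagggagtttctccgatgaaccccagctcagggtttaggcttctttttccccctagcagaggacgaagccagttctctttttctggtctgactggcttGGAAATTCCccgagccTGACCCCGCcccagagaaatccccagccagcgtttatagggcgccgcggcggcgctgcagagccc
The kappaB-like letters started 91 bases before the start of CXCL8 and 242 and 81 bases before that of NFKBIA, and CXCL8 also held the AP-1 letters 137 bases before. The remaining capitals in NFKBIA, 65 bases before, are the antioxidant response core. Of 27305 first-listed promoters of this length 17.1% held the kappaB-like letters, 6.6% the AP-1, 12.1% the retinoid and 11% the antioxidant letters. Promoters were matched for 24 of the 33 genes above additivity and 17 of the 20 below. The kappaB-like letters were in 6 of 24 and 3 of 17, the AP-1 letters in 1 and 0, the retinoid letters in 3 and 1, and the antioxidant letters in 5 and 4. A match describes the letters and not a bound site.

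Below additivity, the largest interactions were in the aldo-keto reductases AKR1C1 and AKR1C2, which reduce steroids and other carbonyls. AKR1C1 had 12.8, 9.13, 9.19, 6.7 and 7.27 with RA plus TNF, 7.04, 15.2, 13.4, 11.3 and 11.4 with TNF, 33.5, 19.7, 20.1, 22.5 and 35.2 with RA and 3.8 to 7.45 in vehicle. The RA arrays stood above all others, and the combination overlapped TNF. RA raised AKR1C1 by 2.12 ± 0.21 log2 without TNF (adjusted p = 1.94e-09) and left it at -0.37 under TNF (adjusted p = 0.406). The interaction was -2.49 ± 0.30 (adjusted p = 1.15e-05), the smallest adjusted p of all genes, and it was called in all 21 fits without 1 array (-2.69 to -2.31). AKR1C2 gave -2.41 ± 0.32 (adjusted p = 3.67e-05) with the same order of groups. The AKR1C genes are close paralogs whose probes can share target, so their values are not separate evidence. AKR1C3 was at -1.68 (adjusted p = 0.647).

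The 2 promoters are shown because they are nearly the same. The AKR1C1 window lies at chr10:4963165-4963414 on the plus strand and the AKR1C2 window at chr10:5003858-5004107 on the minus strand (RefSeq, GRCh38.p14, 250 bases before the start, 5' to 3'). At a shift of 4 bases 245 of 246 positions were equal, and the capitals mark the position that differs. Neither window held any of the 4 motifs searched.
AKR1C1: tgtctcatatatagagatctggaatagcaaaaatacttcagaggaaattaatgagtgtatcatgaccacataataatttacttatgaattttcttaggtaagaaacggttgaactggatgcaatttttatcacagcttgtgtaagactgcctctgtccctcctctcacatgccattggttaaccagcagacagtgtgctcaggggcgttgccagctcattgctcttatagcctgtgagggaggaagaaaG
AKR1C2: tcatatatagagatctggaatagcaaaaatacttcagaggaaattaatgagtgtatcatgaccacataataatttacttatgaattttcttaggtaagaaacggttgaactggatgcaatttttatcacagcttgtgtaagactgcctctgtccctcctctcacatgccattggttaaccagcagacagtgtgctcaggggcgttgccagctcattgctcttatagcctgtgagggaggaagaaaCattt

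By point values, AKR1C1, AKR1C2, PLEKHO1, TRIM14 and DDIT4L were higher with each agent alone and the combination lay below the sum. Against vehicle the combination did not pass for AKR1C2 (0.60, adjusted p = 0.0504) or DDIT4L (0.88, adjusted p = 0.121), and the DDIT4L interaction of -2.37 ± 0.57 (adjusted p = 0.0492) was kept in 4 of 21 fits without 1 array. PLEKHO1 had 50.5, 39, 42.9, 50.7 and 43.7 with RA plus TNF, 10.8, 10.8, 10.5, 16.3 and 14.5 with TNF, 12.9, 10.9, 13.6, 22.9 and 36.1 with RA and 0.491 to 2.84 in vehicle. Each treatment raised it, by 2.99 ± 0.25 for TNF and 3.48 ± 0.25 for RA, and the combination was above every other array. Its combined rise of 4.86 was 1.61 ± 0.36 log2 short of the sum (interaction -1.61, adjusted p = 0.0308). In signal units the combination exceeded the sum, by 485.2 units, so PLEKHO1 is below additivity only on the log2 scale. TRIM14, a TRIM family protein of antiviral signalling, had 44.7 to 60.4 with RA plus TNF, 40.7 to 63 with TNF, 64.9 to 126 with RA and 27.1 to 40.8 in vehicle. RA left TRIM14 at -0.01 under TNF (adjusted p = 0.985) and raised it by 1.24 without TNF (adjusted p = 8.36e-07), an interaction of -1.25 ± 0.23 (adjusted p = 0.00441). B4GALT5, a galactosyltransferase of glycolipid synthesis, had a like order, with 14.4 to 39.3 with RA plus TNF, 15.6 to 24 with TNF, 27.8 to 101 with RA and 11.2 to 22.4 in vehicle (-1.39 ± 0.28, adjusted p = 0.00997).

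In 10 genes the point value of the combination was lower by 0.5 log2 or more and lay below the sum. Neither single effect rose by 0.5 log2 or more. Not every single effect was a fall, since GLDN was at 0.28 with RA alone and 0.17 with TNF alone. BMP8B, a bone morphogenetic protein, had 36.1, 31.2, 29.9, 25.7 and 31.7 with RA plus TNF, against 106, 78.8, 89.8, 135 and 155 with TNF. RA alone gave 106, 86.6, 83.1, 88.5 and 131, and vehicle 76.4 to 139 with a median of 129. The combination was below every other array, and the remaining 3 groups overlapped. Neither TNF (-0.03, adjusted p = 0.942) nor RA (-0.20, adjusted p = 0.717) passed alone, the combined fall was by 1.87 log2 (adjusted p = 2.12e-11), and the interaction was -1.63 ± 0.23 (adjusted p = 0.000143). It was called in all 21 fits without 1 array (-1.73 to -1.52). The mean of its probe sets gave -1.01 (adjusted p = 0.0573).

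DHRS9, a short-chain dehydrogenase of retinol and steroids, had 81.5, 62.9, 64.8, 63.8 and 47.2 in the combination, below every other array. It had 113 to 150 with TNF, 137 to 259 with RA and 132 to 236 in vehicle (-1.09 ± 0.24, adjusted p = 0.0261). RET, a receptor tyrosine kinase, had 12.7 to 22 with RA plus TNF, 20.6 to 44.5 with TNF, 45.1 to 97.6 with RA and 39.9 to 81.9 in vehicle (-1.01 ± 0.24, adjusted p = 0.039). TASL, an adaptor of endosomal Toll-like receptor signalling, had 25.1 to 73.5 in the combination, against 97.3 to 132 with TNF, 73.5 to 110 with RA and 74.6 to 118 in vehicle (-1.23 ± 0.26, adjusted p = 0.0155). RUBCNL, THSD7A, TMT1B, ZNF721, GLDN and PWAR6 completed the group, with interactions from -1.72 to -0.96. RUBCNL, THSD7A and TMT1B were below every other array in the combination.

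DDX60L lay below additivity after a point rise with RA, and NOTCH2NLA, RUSC1-AS1 and LINC02987 after a point rise with TNF (-2.19 to -1.08). NOTCH2NLA and ZNF721 have close copies in the genome, and RUSC1-AS1 is named as antisense to another gene, so their probe sets may read more than 1 transcript.

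**Figure D3:**
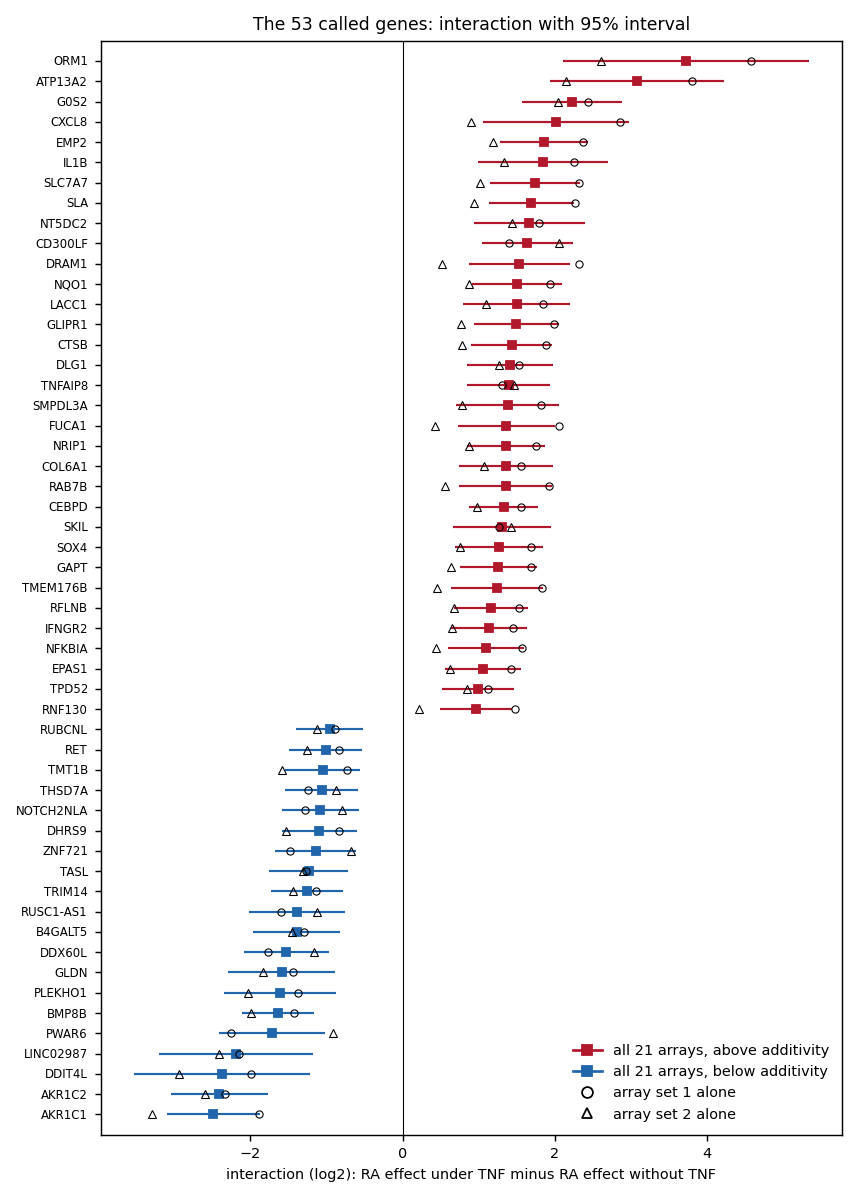
Interaction (log2) of the 53 called genes with its 95% interval over 21 arrays (squares, red above and blue below additivity), and the value in array set 1 alone (circles) and array set 2 alone (triangles). All 53 have the same sign in both sets, and 30 of the 33 red genes are larger in set 1.

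The 2 array sets, told apart by array record number, each held the same 4 groups, with 12 arrays in set 1 and 9 in set 2. Record numbers alone do not show whether the sets were cultured or processed apart. All 53 genes had the same sign in both, which the joint selection favours. Of the 33 genes above additivity 30 were larger in set 1 than in set 2, or 26 relative to the median of each set (0.22 and -0.20 log2 over all genes). In 30 of them RA alone replicate 5 was the highest RA array, and in 20 both RA arrays of set 2 were above all RA arrays of set 1. Of the 20 genes below additivity the same held in 11 and in 6. These counts were not made over all genes, so they do not set the called genes apart. Without RA replicate 5, 64 genes were above and 16 below additivity. Fitted alone, set 1 called 55 genes, of which 48 (87.3%) had the same sign in set 2 and 23 also passed an unadjusted p under 0.05 there. By direction, 31 of 36 above additivity kept their sign (86.1%, against 32.3% of all genes positive in set 1) and 17 of 19 below it (89.5%, against 68.6% of all genes negative in set 1). Set 2 called 16, of which 13 had the same sign in set 1 (81.2%), 3 of 3 above (66.6% of all genes positive in set 2) and 10 of 13 below (34.3% of all genes negative in set 2). The difference between the sets passed for none of 12398 genes in limma, with 955 genes (7.7%) at an unadjusted p under 0.05.

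Of the genes followed whatever their result, several large interactions did not pass. CCL20, a chemokine of memory T cells and dendritic cells, had 28.3, 33.5, 19.3, 11.7 and 15.1 with RA plus TNF, 0.268, 0.151, 0.144, 0.232 and 1.25 with TNF, 0.18, 0.135, 0.129, 0.128 and 1.61 with RA and 0.0583 to 0.162 in vehicle. The combination was above all other arrays, while 1 array with TNF and 1 with RA, replicate 5 of each, were far above the rest of their groups. The CCL20 interaction was 4.87 with a 95% interval of 2.33 to 7.41 (adjusted p = 0.0785), and all groups but the combination lay mostly under the array median. The call depended on the processing, since CCL20 passed after quantile normalization (4.73, adjusted p = 0.0373), with GCOS scaling (4.84, adjusted p = 0.0248) and without RA replicate 5 (5.61, adjusted p = 0.0269), but not in set 1 alone (6.72, adjusted p = 0.0862) or set 2 alone (2.27, adjusted p = 0.835). CD14, a receptor for bacterial lipopolysaccharide, had 30.7 to 62.2 with RA plus TNF, 2.39 to 5.06 with TNF, 1.08 to 4.12 with RA and 0.144 to 1.78 in vehicle (1.99, interval 0.71 to 3.27, adjusted p = 0.236). CXCL11, an interferon-induced chemokine, had 1.62 to 4.53 with RA plus TNF, 6.93 to 13.2 with TNF, 0.233 to 0.669 with RA and 0.0306 to 0.869 in vehicle (-2.71, interval -4.59 to -0.83, adjusted p = 0.319). TNF, whose own transcript was measured too, had 0.451 to 8.52 with RA plus TNF, 9.29 to 25.1 with TNF, 0.645 to 1.61 with RA and 0.436 to 4.19 in vehicle (-1.75, interval -3.10 to -0.40, adjusted p = 0.429). CD38 (-0.91, adjusted p = 0.146), CD36 (1.10, adjusted p = 0.12), DHRS3 (1.30, adjusted p = 0.286) and MMP2 (0.97, adjusted p = 0.299) did not pass either. Among the interferon-linked genes, CXCL10 was at -1.06 (interval -2.55 to 0.42), IRF7 at -0.70 (interval -1.35 to -0.05) and IRF1 at -0.30 (interval -0.82 to 0.22). The adhesion genes ICAM1 and ITGAM were at -0.48 (interval -1.54 to 0.59) and -0.76 (interval -1.24 to -0.27), and the protease MMP9 at 0.67 (interval -0.13 to 1.48). IGFBP3, which binds insulin-like growth factors, was at 0.83 (interval -0.43 to 2.08). CD1D, TGM2, PTGES and THBS1, each with an RA effect of 2.48 log2 or more without TNF, had interactions between -0.32 and 0.63 with intervals too wide to place them within 1 log2. None of these genes passed, with adjusted p from 0.238 to 0.996. Other probe sets gave larger interactions for THBS1 (2.40 and 3.24) and PTGES (1.47), and -0.30 for TGM2. A p that misses the threshold does not show additivity.

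For other genes the interval was narrow enough to bound the interaction. TNFAIP3, the NF-kB feedback enzyme A20, had 118, 99.3, 95.9, 86.5 and 111 with RA plus TNF, 99, 92.3, 98, 89.4 and 85.7 with TNF, 7.95, 5.61, 7.75, 8.65 and 13.5 with RA and 5.43 to 9.36 in vehicle. The groups fell into those with and without TNF, and the interaction was -0.08 (interval -0.58 to 0.42). MX1, an antiviral GTPase, was at -0.16 (interval -0.77 to 0.45). In all, 6763 of 12398 genes (54.5%) had an interval within 1 log2 of additivity. Both single effects were at least 1 log2 in 215 genes, of which 9 had such an interval, 3 were called above and 2 below. SEL1L3 was one of the 9, with 37.8 to 52.8 with RA plus TNF, 10.9 to 14.5 with TNF, 154 to 228 with RA and 39.8 to 70.5 in vehicle, so that opposite single effects left the combination overlapping vehicle (-0.06, interval -0.51 to 0.40). IKBKE, a kinase of interferon induction, rose with both and was at -0.26 (interval -0.97 to 0.45). MLC1 fell with both, at 1.45 to 2.89 with RA plus TNF, 5.98 to 8.27 with TNF, 5.26 to 7.33 with RA and 15.3 to 19.3 in vehicle (-0.15, interval -0.69 to 0.40). BICDL1, ANXA2 and ABHD17C had opposite single effects and were at -0.04 (interval -0.84 to 0.76), 0.44 (interval -0.01 to 0.89) and 0.13 (interval -0.39 to 0.65).

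Of 437 tested members of 35 gene lists 11 were called (2.52%), beside 0.427% of all genes, and 26 lists had none. The lists were drawn up with earlier results of these data known, so this share is a description. At an unadjusted p under 0.05 in limma, 4.15% of all genes were above and 3.24% below. In the oxidative stress and metal response list 1 of 15 members was called above (NQO1) and 2 below (AKR1C1, AKR1C2), with a median of -0.43 against 0.04 over all genes. The NF-kB components and feedback list had 1 of 17 (NFKBIA), a median of 0.02 and 13 members with an interval within 1 log2. The TNF receptor signalling list had 1 of 16 (TNFAIP8) and a median of 0.27. The interferon response list had none of 41, a median of -0.29 and 9 positive values (0 above and 3 below at an unadjusted p under 0.05), where 6859 of 12398 genes were positive. The amino acid and unfolded protein response list had none of 12 (0 and 3 unadjusted), a median of -0.55 and 1 positive value, and the MHC class II list none of 10 (2 above and 0 below unadjusted), a median of 0.45 and 10 positive values. The cell cycle list had none of 32 (3 above and 0 below unadjusted), a median of 0.27, 30 positive values and 26 intervals within 1 log2. Of 48 lysosomal hydrolases and membrane proteins, a list added after values were seen, 40 were tested, 5 were called above (CTSB, FUCA1, ATP13A2, SMPDL3A and DRAM1) and none below, with 36 positive values and a median of 0.37. Unadjusted, 12 of the 40 were above and 0 below. Other lists with a called member were the ELR CXC chemokines (CXCL8, 1 of 2), the interleukin 1 family (IL1B, 1 of 8), retinoid metabolism and receptors (NRIP1, 1 of 14), lipid handling (G0S2, 1 of 23), matrix proteases (CTSB, 1 of 18) and myeloid transcription factors (CEBPD, 1 of 24). Unadjusted, lipid handling had 9 members above and 0 below, and retinoid metabolism and receptors 3 and 0. Matrix proteases had 3 and 1, and myeloid transcription factors 4 and 3.

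**Figure D4:**
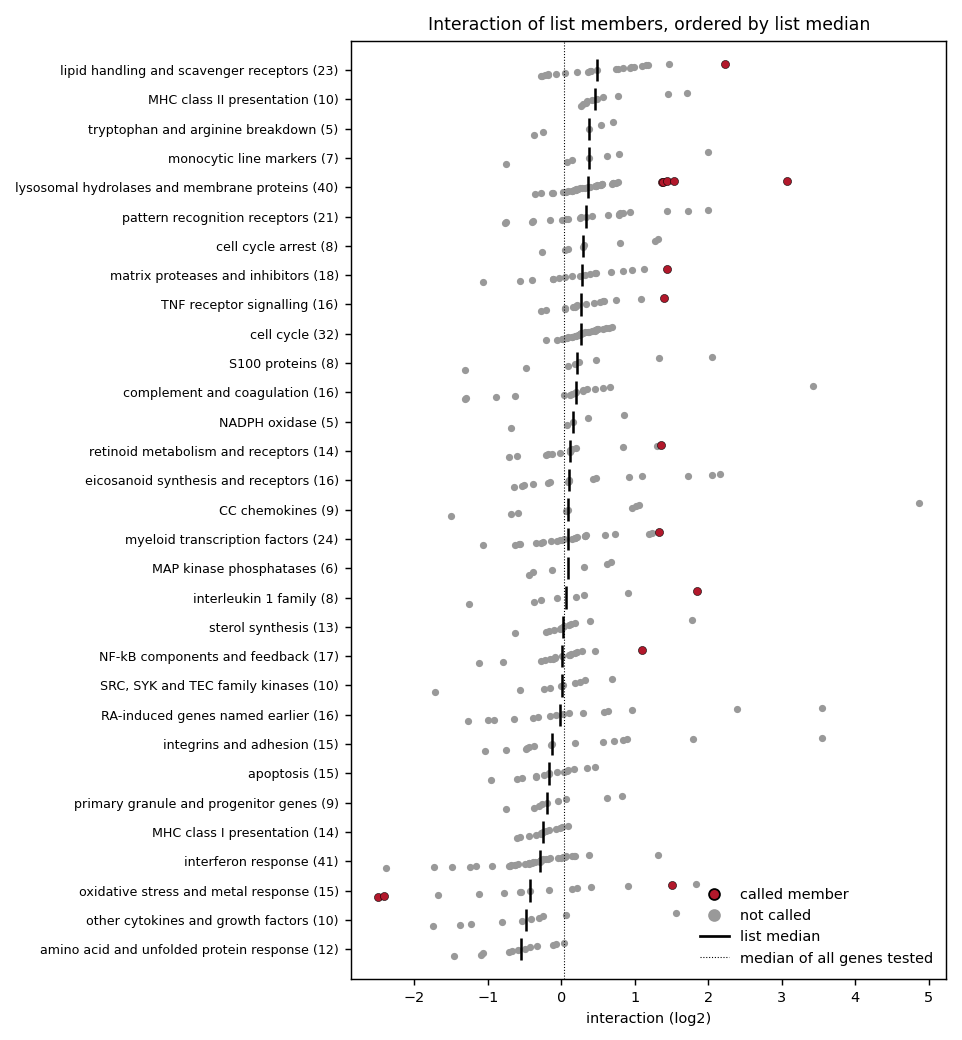
Interaction (log2) of the tested members of the 31 lists with at least 5 tested members, 1 point a member, red where called, with the list median as a bar and the median of all genes tested as a dotted line. Lists are ordered by their median, from lipid handling at the top to the amino acid response at the bottom.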

How the data were processed

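Total RNA of 21 THP-1 wells was measured on 1 Affymetrix array each. The deposited values are log2 signals centred on the median of each array, as the values themselves show. Signals came from GCOS, the Affymetrix software, per the submitters' processing notes, with its version and settings not given in the sources used here. With the lowest value of an array taken as 1 unit, signals below 8 units fell within 0.0047 of multiples of 0.1, which let signals be recovered. Centring removes any change in total RNA. For arrays, their number limits the precision.

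Of 54675 probe sets 62 controls were left out, and 41091 with a single gene symbol gave 19777 genes (1801 had several symbols and 11721 none), named by GEO's platform annotation with 41037 matched to the RefSeq gene table. The probe set of highest mean linear value stood for a gene, and genes under the median linear value of all probe sets (0.8823) were removed, which left 12398. The 4 groups were fitted with lmFit and eBayes with an intensity trend (limma 3.58.1 in R 4.3.3), array set as a covariate and 16 residual degrees of freedom. Calls needed an adjusted p under 0.05 (Benjamini-Hochberg, all 12398 genes), and errors of log2 values are standard errors. Adjusted p-values throughout are from limma. The script was tested on simulated data.

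The members, lists and named genes were chosen with earlier results of these data known. Named genes were the 10 largest called interactions each way with one sign in both array sets, 24 followed genes, up to 3 called members of each list, and 6 of those near additivity with large single effects. Other called genes named in the text were added to account for all 53. The probe set of highest mean log2 value and a lysosomal list were added after values were seen. Other alternatives changed the normalization, filter, floor, probe set rule, variance model, array weights, array set term and arrays used. Promoters are those of RefSeq (GRCh38.p14).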

Additional observations from a re-analysis of the deposited data

Results flagged for a closer look

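Over 81 genes and 4 array quality measures in 4 groups, 340 groups of arrays in all, 10 held an array far from the rest of its group by Dixon's test, where chance flags about 1 in 20 groups. With RA plus TNF, MLC1 was low in replicate 2 (a level of 1.45) and PWAR6 low in replicate 4 (1.65). With TNF, ATP13A2 was low in replicate 3 (0.122), GLIPR1 low in replicate 2 (4.94) and CCL20 high in replicate 5 (1.25). With RA, CCL20 was high in replicate 5 (1.61) and IGFBP3 high in replicate 4 (1.13). In vehicle, ABHD17C was low in replicate 3 (5.48), DHRS3 low in replicate 4 (0.717) and IL1B low in replicate 1 (0.353).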

How the results depend on the processing

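The reported fit called 33 genes above and 20 below additivity. Without the array set term it called 4 and 3, after quantile normalization 108 and 81, with GCOS scaling without median centring 94 and 68, with signals floored at 16 units 49 and 25, with no filter 35 and 18, with a 75th percentile filter 38 and 21, with the probe set of highest mean log2 value (chosen after seeing the data) 33 and 20, with the mean of all probe sets 19 and 10, without an intensity trend 8 and 3, with array weights 50 and 33, in array set 1 alone 36 and 19, and in array set 2 alone 3 and 13. Leaving out 1 array at a time gave 17 to 64 above and 8 to 32 below. The count above moved by over 1.5 times without RA plus TNF replicates 1, 2 and 3 (18, 21 and 17), TNF replicates 2 and 5 (21 and 20) and RA replicates 2, 3 and 5 (21, 18 and 64). The count below did so without RA plus TNF replicates 3, 4 and 5 (11, 8 and 32), TNF replicates 1, 3 and 4 (9, 8 and 13), RA replicates 1 and 3 (12 each) and vehicle replicate 3 (13). All 53 genes were called after quantile normalization, with GCOS scaling and with the floor, and 23 in each of the 21 fits without 1 array. The number of genes near additivity was 6312 to 6765 over those fits. NFKBIA reversed with the mean of its probe sets (-0.67) and PLEKHO1 on the linear scale (485.2 units). The cause of these changes was not tested. Deviations from the mean of each group and set were correlated in 30 same-numbered pairs of arrays, at -0.09 to 0.08 and none over 0.1. The pairs are not all separate checks. RA plus TNF, TNF and RA have 2 arrays each in set 2, whose deviations mirror each other, so replicates 4 and 5 gave equal correlations among these groups. Pairing other than by replicate number was not tried. The fit with a replicate block called 34 and 18 genes, and 47 genes were shared with the reported fit.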
